A study of Mus musculus with 2 samples.

Results

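The peaks described here are the H3K36me2 regions of mouse colon whose nearest annotated gene was a microRNA gene. They were taken from the peak list of each library as every row whose gene symbol began with Mir and was not the name of a host transcript, which ends in hg. The rule found 472 of 19976 peaks, assigned to 319 of 12462 genes, in the Nsd2 fl/fl library, and 531 of 23518 peaks, assigned to 342 of 13595 genes, in the Nsd2 ΔIE library. In all, 450 microRNA genes had a peak in at least 1 library, out of 18187 genes, and all 450 symbols were also in a RefSeq table of 1180 mouse microRNA genes. The signal of the peaks played no part in the choice.

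The data are CUT&Tag libraries of colon tissue, in which an antibody against H3K36me2 guides a transposase to the marked chromatin. H3K36me2 is laid down by NSD2 and related methyltransferases. The control genotype was Nsd2 fl/fl, whose Nsd2 alleles carry loxP sites. The other was Nsd2 ΔIE, in which a Cre driven by the Villin promoter deletes Nsd2 in the intestinal epithelium, so that the other cells of the colon keep the gene. All mice were male littermates on a C57BL/6J background, 7 to 8 weeks old when an HFCD began, and were fed this high-fat cholesterol diet for 18 weeks according to the methods or 16 weeks according to the deposited design. The number of mice behind a library and whether the Nsd2 fl/fl mice carried Cre are not given in the sources used here. Each genotype had 1 library, so no difference between the genotypes has a replicate check and no test was made. Shares are given with 95% Wilson intervals, which cover counting error only.

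Some facts of the whole lists bear on every value below. The number of reads is unknown, and the summed signal of a peak starts at 21783 in the Nsd2 fl/fl list and at 16571 in the Nsd2 ΔIE list, so signals were compared only within a list. At Nsd2 itself the Nsd2 fl/fl list had no peak, and the Nsd2 ΔIE list had 1 of 3766 bp at its promoter. A peak list does not show whether the gene was deleted. Of 12 epithelial marker genes, 6 and 7 had a peak in the Nsd2 fl/fl and Nsd2 ΔIE libraries, among them Cdx1, Cdh1, Cdh17 and the mucin gene Muc2 in both. The villin gene Vil1 also had peaks in both, but its promoter drives the Cre, so it is no independent marker here. The lists name only genes with a peak, and the share of all protein-coding genes with a peak was not computed. The marker counts therefore stand without a background share. Of 7 immune markers 2 and 3 had a peak, of 6 stromal and muscle markers 1 and 2, of 2 endothelial markers 2 and 2, and of 3 neuronal and glial markers 1 and 2. Cdx2, Krt8, Krt18, Lgals4, Cd3e, Cd4, Cd68, Adgre1, Col1a1, Col1a2, Pdgfra, Acta2 and Uchl1 had none in either list. In whole tissue, fewer cells of a type and less of the mark per cell cannot be told apart.

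MicroRNAs are short RNAs that pair with messenger RNAs and lower their translation and stability. A long primary transcript is cut in the nucleus to a hairpin and in the cytoplasm to the mature strand, and the bases at positions 2 to 8 of that strand, the seed, give most of its target choice. Many hairpins lie in introns of protein-coding genes and are made from the host's transcript, others lie in clusters with a primary transcript of their own. H3K36me2 is a broad mark of gene bodies and of the regions between genes, so a peak at a hairpin inside a gene also lies on that gene.

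The mature sequences of the members on which the results below turn are shown here, 5′ to 3′, with the seed in capitals, so that members that share a seed can be seen together. They were read from RefSeq (GRCm38.p6), in which 406 of the 450 members had a mature sequence. The epithelial microRNAs of miR-200, miR-375, miR-192, miR-194, miR-802 and the Mir182 and Mir183 cluster come before the let-7, miR-26 and miR-148/152 families, which are grouped by seed, and miR-33, miR-34a, miR-126, miR-142 and miR-199a follow. Only 1 mature strand of each hairpin is shown. For Mir375 no strand other than that shown was read, so the seed of its other strand is not given here.
mmu-miR-200a-3p: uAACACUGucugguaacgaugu
mmu-miR-375-5p: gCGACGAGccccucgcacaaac
mmu-miR-192-5p: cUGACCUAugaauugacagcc
mmu-miR-194-5p: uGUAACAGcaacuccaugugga
mmu-miR-802-5p: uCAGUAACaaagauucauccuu
mmu-miR-182-5p: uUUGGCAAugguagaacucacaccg
mmu-miR-183-5p: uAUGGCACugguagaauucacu
mmu-let-7b-5p: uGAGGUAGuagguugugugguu
mmu-let-7g-5p: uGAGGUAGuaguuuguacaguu
mmu-miR-26a-5p: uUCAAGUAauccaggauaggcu
mmu-miR-26b-5p: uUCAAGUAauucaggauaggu
mmu-miR-148a-3p: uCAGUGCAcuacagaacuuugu
mmu-miR-148b-3p: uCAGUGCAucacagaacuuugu
mmu-miR-152-3p: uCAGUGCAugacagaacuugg
mmu-miR-33-5p: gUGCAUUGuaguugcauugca
mmu-miR-34a-5p: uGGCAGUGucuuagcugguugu
mmu-miR-126a-3p: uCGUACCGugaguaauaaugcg
mmu-miR-142a-3p: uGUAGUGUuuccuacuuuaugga
mmu-miR-199a-3p: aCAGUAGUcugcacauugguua

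Across the 687 mature sequences read there were 630 distinct seeds, and 42 seeds were shared by at least 2 members. The members are therefore mostly unrelated microRNAs, and a shared seed ties few of them together.

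The microRNA peaks were broad in both libraries and narrower in Nsd2 ΔIE. In the Nsd2 fl/fl library they ranged from 1997 to 25646 bp with a median of 4732 bp, and in the Nsd2 ΔIE library from 1681 to 13074 bp with a median of 3568 bp. All peaks of the lists had medians of 4643 and 3426 bp. The shift to narrower peaks was thus shared by the whole lists. Peaks of 10 kb or more made up 24 of the 472 microRNA peaks, or 5.08% (95% interval 3.44 to 7.45), in Nsd2 fl/fl and 7 of 531, or 1.32% (0.640 to 2.70), in Nsd2 ΔIE, against 3.38% and 0.693% of all peaks. The summed signal per bp had a median of 6.43 in the microRNA peaks of Nsd2 fl/fl and of 6.49 in those of Nsd2 ΔIE, against 6.14 and 6.32 in all peaks. In total the microRNA peaks covered 2641919 bp in Nsd2 fl/fl against 2159883 bp in Nsd2 ΔIE, a log2 ratio of -0.29, where all peaks together gave -0.23.

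Most members had their hairpin inside another gene. The hairpin lay within the span of a protein-coding gene for 359 of the 450 members, or 79.8% (75.8 to 83.2), and for 435 of the 730 RefSeq microRNA genes with no assigned peak, or 59.6% (56.0 to 63.1). Conversely, another microRNA gene lay within 10 kb of 12.4% (9.71 to 15.8) of the members and of 42.7% (39.2 to 46.4) of the others. A peak is given to 1 gene only, so a cluster of hairpins shares its peak under 1 name. Members with a symbol number of 6000 or more, which follow the order of discovery, were 240 of 450, against 185 of the other 730. No microRNA peak lay on the X chromosome, where the RefSeq table has 90 microRNA genes, and the whole lists had 1 and 5 peaks there. These 90 genes are all among the 730 others, so the contrasts above do not compare autosomal genes alone. The 19 autosomes each held microRNA peaks in both libraries.

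Peaks called promoter in the lists lie within 3 kb of the annotated start, which for a microRNA is the 5′ end of the hairpin and not the start of its primary transcript. In Nsd2 fl/fl 223 of 472 microRNA peaks, or 47.2% (42.8 to 51.8), had this label against 31.8% of the other peaks, and in Nsd2 ΔIE 220 of 531, or 41.4% (37.3 to 45.7), against 27.5%. The hairpin was inside a protein-coding gene for 185 of these 223 peaks and for 190 of these 220, shares of 83.0% and 86.4%, near the 82.4% and 84.7% of all microRNA peaks. The peak overlapped the whole hairpin in 148 cases in Nsd2 fl/fl and in 125 in Nsd2 ΔIE, while the stretch of highest signal that the peak caller marked met the hairpin in 8 and 6 of them. The centre of that stretch lay a median of 1382 and 944 bp from the middle of the hairpin.

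For 157 and 203 of the remaining peaks the annotation named the host whose intron or exon held the peak. There were 114 hosts in Nsd2 fl/fl against 136 in Nsd2 ΔIE, with 67 and 103 of the peaks in introns and 90 and 100 in exons. In 141 of the 157 and in 173 of the 203 cases the named host was also a gene whose span holds the hairpin in GRCm38.p6, and in the other cases it was another gene. The hosts with the most such peaks were Slit3, a guidance ligand gene, with 5 in Nsd2 fl/fl, and the netrin gene Ntn1 with 7, the B cell factor gene Pax5 with 5, Zfhx3 with 5 and the sorting receptor gene Sorcs2 with 5 in Nsd2 ΔIE.

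Peaks near a hairpin carried the name of the microRNA whether or not the host also had peaks of its own. Of the 342 members with exactly 1 protein-coding host, 247 had a peak in Nsd2 fl/fl, and for 134 of these the host had no peak under its own name. In Nsd2 ΔIE this held for 145 of 267. In the others both names had peaks, as at Srebf1, the gene of the lipid synthesis factor SREBP-1, whose body holds Mir6921. The peaks assigned to Mir6921 summed to 35873 bp in Nsd2 fl/fl against 7944 bp in Nsd2 ΔIE, and those assigned to Srebf1 to 8953 and 19780 bp. The lengths under the microRNA's name and the host's name moved in opposite directions there. The 23347 bp peak over the Mir6921 hairpin in Nsd2 fl/fl was met in Nsd2 ΔIE by peaks assigned to Mir6921 and Srebf1. Similarly, at Jag2, the gene of a Notch ligand, the Mir6941 peaks went from 4671 to 16611 bp and the Jag2 peaks from 25802 to 6915 bp. Both names lie on 1 locus and each peak has 1 name, so these lengths do not show opposite changes of the mark. For Mir7032 in Hip1r, Mir693 in Xpo5, the exporter gene of microRNA hairpins, Mir33 in Srebf2 and Mir7088 in Mst1, no peak of either library was assigned to the host.

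MicroRNA peaks were met by a peak of the other library more often than other peaks were. A shared base was enough for an overlap. In the Nsd2 fl/fl list 241 of 472 microRNA peaks, or 51.1% (46.6 to 55.5), were overlapped, against 33.7% of the other peaks and 34.1% of all peaks. In the Nsd2 ΔIE list it was 251 of 531, or 47.3% (43.1 to 51.5), against 30.3% of the others and 30.7% of all. The intervals of the microRNA shares lay above the shares of the other peaks in both lists. When the overlap had to cover at least 50% of each peak, 19.5% (16.2 to 23.3) of the microRNA peaks of Nsd2 fl/fl against 15.7% of its other peaks, and 17.5% (14.5 to 21.0) against 13.3% in Nsd2 ΔIE, were shared, so the contrast was smaller in points. The overlapping peak was assigned to the same microRNA gene in 218 of the 241 cases and in 226 of the 251.

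The higher share was seen at each level of signal. With each list ranked by summed signal and divided into 4 bins of equal size, 38.1%, 44.0%, 38.3% and 70.9% of the Nsd2 fl/fl microRNA peaks were overlapped from the lowest to the highest bin, against 21.4%, 25.2%, 33.3% and 55.1% of the other peaks. In Nsd2 ΔIE the shares were 26.7%, 35.3%, 42.3% and 70.2% against 20.4%, 23.2%, 29.4% and 48.4%. The interval of the microRNA share held the other peaks' share in the third bin of Nsd2 fl/fl and in the lowest bin of Nsd2 ΔIE and lay above it elsewhere. The median widths within a bin were close, for example 7064 bp for microRNA peaks and 6893 bp for others in the highest bin of Nsd2 fl/fl. Among promoter-labelled peaks alone, 59.6% (53.1 to 65.9) of the microRNA peaks of Nsd2 fl/fl were overlapped against 40.3% of the others, and 55.5% (48.8 to 61.9) against 37.8% in Nsd2 ΔIE. The microRNA share was the higher in all 6 features compared in each list, but its interval held the share of the other peaks in 3 of the 6 in Nsd2 fl/fl (3′ UTR, intron and distal intergenic) and in 2 of the 6 in Nsd2 ΔIE (5′ UTR and distal intergenic). The share also went with the host. MicroRNA peaks whose hairpin lay in a protein-coding gene were overlapped in 55.3% (50.3 to 60.1) of cases in Nsd2 fl/fl and in 225 of 450 cases (45.4% to 54.6%) in Nsd2 ΔIE, and those whose hairpin did not in 31.3% (22.4 to 41.9) and 32.1% (22.9 to 42.9), near the shares of the other peaks. The part of the host in the difference was not tested.

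**Figure D1:**
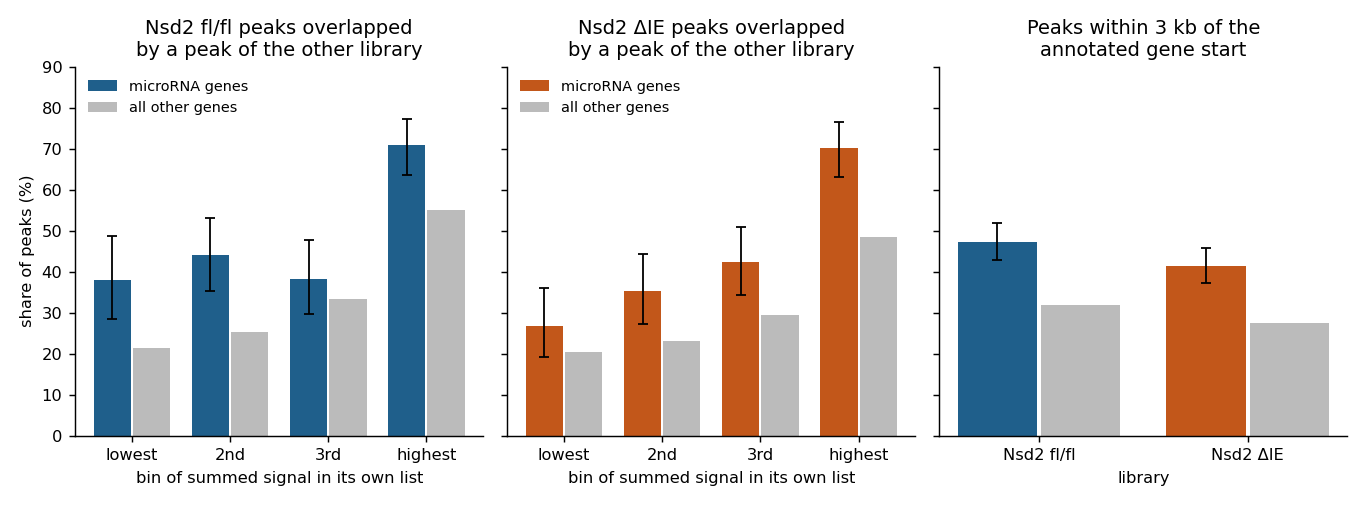
Share of peaks in percent (vertical axis, from 0) overlapped by a peak of the other library in each of 4 bins of summed signal (left and middle), and lying within 3 kb of the annotated start (right), for microRNA peaks in colour and all other peaks in grey, with 95% Wilson intervals on the microRNA shares. The microRNA bars stand above the grey bars in all bins, at 70.9% against 55.1% in the highest bin of Nsd2 fl/fl, and reach 47.2% and 41.4% in the right panel.

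By gene, 211 of the 450 members had a peak in both libraries, 108 in Nsd2 fl/fl only and 131 in Nsd2 ΔIE only. These single-library shares were 24.0% (20.3 to 28.2) and 29.1% (25.1 to 33.5), against 25.2% and 31.5% of all genes, and the intervals of the members held the shares of all genes. A peak in 1 list only does not show a bare locus in the other: 18 of the 108 genes had their peak overlapped by a Nsd2 ΔIE peak assigned to another gene, and 16 of the 131 by such a Nsd2 fl/fl peak. For the 211 genes with peaks in both, the widths of a gene's peaks were summed in each library. The log2 ratio, with Nsd2 ΔIE over the control, ran from -3.0 to 2.02 with a median of -0.29, and the median over all 7870 such genes was -0.32. A ratio below -0.5 was found for 82 genes, or 38.9% (32.5 to 45.6), against 41.8% of all genes, and a ratio above 0.5 for 42, or 19.9% (15.1 to 25.8), against 19.0%. The members' lengths thus shifted as those of all genes did. Centred on the median of all genes, 64 were lower and 63 higher, and counted by the number of peaks, 39 were lower and 48 higher. In 162 of the 211 genes a peak of the gene overlapped between the libraries, and in 49 the peaks of the gene lay at different places.

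**Figure D2:**
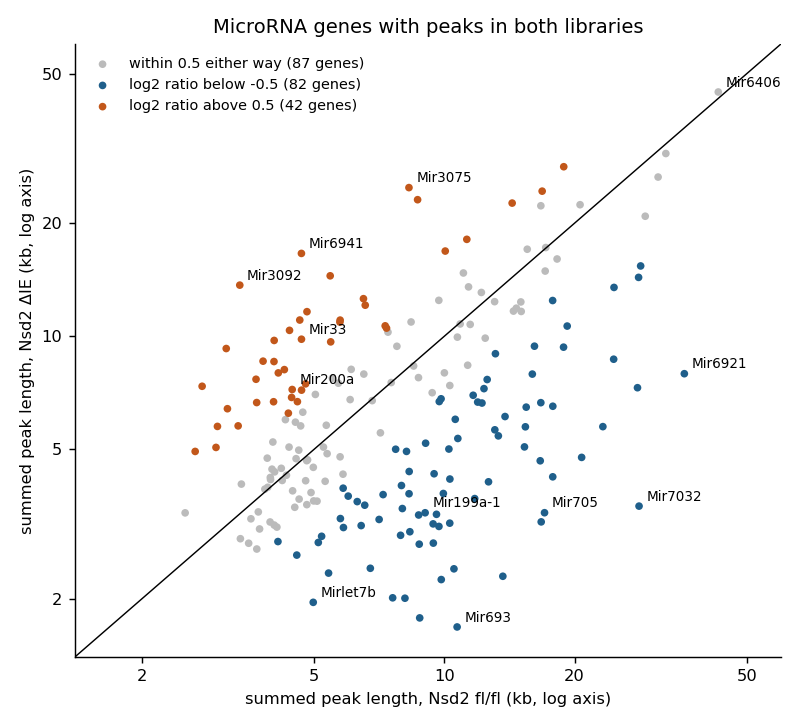
Summed peak length of the 211 microRNA genes with peaks in both libraries, Nsd2 fl/fl on the horizontal and Nsd2 ΔIE on the vertical axis, in kb on log axes, with each point a gene and the line marking equal lengths. Blue points are the 82 genes with a log2 ratio below -0.5, orange points the 42 above 0.5 and grey points the 87 between, with Mir7032 lowest at -3.0 and Mir3092 highest at 2.02.

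Hairpins themselves were under a peak of any gene in 163 of the 450 members in Nsd2 fl/fl, or 36.2%, and in 134, or 29.8%, in Nsd2 ΔIE. Of these, 62 were covered in both libraries, 101 in Nsd2 fl/fl only and 72 in Nsd2 ΔIE only, and 215 were covered in neither. Taking only the annotated start, 36% and 29.6% of the members had it under a peak, against 18.1% and 13.2% of all listed genes. Both libraries covered the start of 13.6% of the members and of 3.56% of all genes. The part that host genes have in this difference was not tested. Positions of hairpins come from the lists' own annotation and so exist only for genes with an assigned peak.

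A peak was assigned to 27.0% of the 1180 RefSeq microRNA genes in Nsd2 fl/fl, to 29.0% in Nsd2 ΔIE and to 38.1% in at least 1 library, and the counts of the short lists that follow stand beside these shares with no test. Of the 17 microRNA genes known from intestinal epithelium 7 had a peak, 6 in Nsd2 fl/fl against 4 in Nsd2 ΔIE, with 3 in both. Mir200a belongs to the miR-200 family, which keeps epithelial cells from a mesenchymal state. Its hairpin was under a peak in both libraries, at chr4:156135739-156140185 with 4447 bp in Nsd2 fl/fl and at chr4:156136687-156143896 with 7210 bp in Nsd2 ΔIE, which shared 3499 bp (log2 ratio 0.70). Coordinates are those the lists print, whose build is not named. Mir200b and Mir429 lie within 10 kb and had no peak under their own names. Mir375, known from secretory cells of the gut and pancreas, had its peak upstream of the hairpin in both libraries, 5459 bp in Nsd2 fl/fl against 9657 bp in Nsd2 ΔIE (log2 ratio 0.82). The whole Nsd2 fl/fl peak lay inside the Nsd2 ΔIE peak. At the Mir194-2 and Mir192 pair, which are high in gut and liver, the Mir194-2 peak of Nsd2 fl/fl had 3393 bp and ended 5 bp before the hairpin, and that of Nsd2 ΔIE had 4037 bp and ended 1840 bp before it. They shared 1558 bp. On the other side of the pair a Mir192 peak of 6638 bp was listed in Nsd2 fl/fl only, with no overlap in Nsd2 ΔIE. The 3 epithelial genes with peaks in both libraries thus had a longer summed length in Nsd2 ΔIE, by different amounts, and past the limit of 0.5 in 2 of them.

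The other epithelial members had a peak in 1 library. Mir802, a microRNA of gut and liver, had a peak of 4572 bp over its hairpin in Nsd2 fl/fl, and no Nsd2 ΔIE peak met it. Mir182 and Mir183 belong to 1 cluster with Mir96. In Nsd2 fl/fl a 16494 bp peak assigned to Mir182 lay 3041 bp downstream of the hairpin's start, and in Nsd2 ΔIE a 6777 bp peak assigned to Mir183 covered that hairpin. The Mir182 and Mir183 peaks lay on opposite sides of the Mir182 hairpin, and the Mir183 peak overlapped a Nsd2 fl/fl peak assigned to BB283400 by 196 bp. The cluster therefore carried a peak in each library, at different places. No peak was assigned to Mir194-1, Mir215, Mir200b, Mir200c, Mir141, Mir429, Mir31, Mir203, Mir96 or Mir7-1.

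MicroRNAs known from other cells of the colon were also among the members. Of the 13 immune microRNA genes only Mir142, a marker of blood cells, had a peak, of 4050 bp in Nsd2 fl/fl, 4035 bp upstream of the hairpin, and of 4351 bp in Nsd2 ΔIE, 3863 bp upstream. The first lay inside the second. The X chromosome, where neither library had a microRNA peak, holds 3 of the 13 immune genes. Of the 18 genes of smooth muscle and stroma, 3 had a peak in Nsd2 fl/fl against 6 in Nsd2 ΔIE, and the 3 were among the 6. Mir143, known from smooth muscle, had 7113 bp in Nsd2 fl/fl over its hairpin and 5528 bp in Nsd2 ΔIE beside it (log2 ratio -0.36). Mir133a-2, of muscle, had 3 peaks of 15052 bp in sum in Nsd2 fl/fl and 2 of 11637 bp in Nsd2 ΔIE. Mir199a-1, of mesenchymal cells, had 9025 bp in Nsd2 fl/fl against 3386 bp in Nsd2 ΔIE (log2 ratio -1.41), and the smaller peak lay inside the larger, both over the hairpin. Of these 3, Mir199a-1 alone passed the limit of -0.5, and the ratios of Mir143 and Mir133a-2 (-0.37) were near the median of -0.32 over all genes. Mir125b-1, Mir206 and Mir214 had peaks in Nsd2 ΔIE only, with 6401, 2786 and 4321 bp. The epithelial and muscle examples are few, and no test compares them.

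Mir126a, the microRNA of endothelium in the gene Egfl7, had an 11351 bp peak over its hairpin in Nsd2 fl/fl, with the highest signal 34 bp from the hairpin's middle. No Nsd2 ΔIE peak was assigned to it, yet its hairpin was under a Nsd2 ΔIE peak assigned to Egfl7. The count of a gene in 1 library only is here a matter of the name given to the peak. Of 11 neuronal microRNA genes, Mir9-3 had 4105 bp in Nsd2 fl/fl only, and Mir128-1 with 2717 bp and Mir128-2 with 7517 bp had peaks in Nsd2 ΔIE only.

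Families studied in growth and metabolism were read against the same shares of all microRNA genes. The let-7 family, which holds cells in a differentiated state, had 1 of 12 listed genes with a peak in Nsd2 fl/fl against 2 in Nsd2 ΔIE. Mir7j and Mir7k, whose mature strands are named let-7j and let-7k, were also members but were not on this list. The X chromosome holds 2 of the 12. Mirlet7b went from 4974 bp to 1955 bp (log2 ratio -1.35), with both peaks over the hairpin and the smaller inside the larger. Mirlet7g, in Wdr82, had 4702 bp in Nsd2 ΔIE only. Of the 15 genes of miR-17/92 and its paralogs, which promote proliferation, Mir92-1 alone had a peak, of 5207 bp in Nsd2 fl/fl, and 6 of the 15 lie on the X chromosome. Of the 6 genes of miR-34, which p53 induces, Mir34a had peaks of 3335 and 5068 bp in Nsd2 fl/fl, the second over the hairpin, and none in Nsd2 ΔIE. Of the 6 genes of miR-10 and the Hox clusters, Mir196a-1 had 4452 bp in Nsd2 fl/fl over the hairpin.

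Of 18 microRNA genes tied to lipid and insulin metabolism, 4 had a peak in each library and 1 in both. The shared gene was Mir33, which lies in Srebf2, the gene of the factor that drives cholesterol synthesis, and which lowers cholesterol efflux. In Nsd2 fl/fl it had a peak of 4672 bp, 17992 bp upstream of the hairpin in exon 6 of 19. In Nsd2 ΔIE it had 3 peaks, of 2173 bp in exon 12 of 19, of 3398 bp over the hairpin and of 4244 bp in the 3′ UTR, 9815 bp in sum (log2 ratio 1.07). No Mir33 peak overlapped between the libraries. The longer summed length thus came from other stretches of Srebf2 and not from a wider copy of the same peak. Mir29a, Mir30c-1 and Mir30e had 3311, 4968 and 4684 bp in Nsd2 fl/fl only, and Mir29b-1, Mir29b-2 and Mir107 had 5032, 2425 and 2430 bp in Nsd2 ΔIE only. Mir29a and Mir29b-1 are neighbours within 10 kb, and their peaks lay on opposite sides of the pair, 2574 bp downstream and 26433 bp upstream of the gene each was assigned to.

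**Figure D3:**
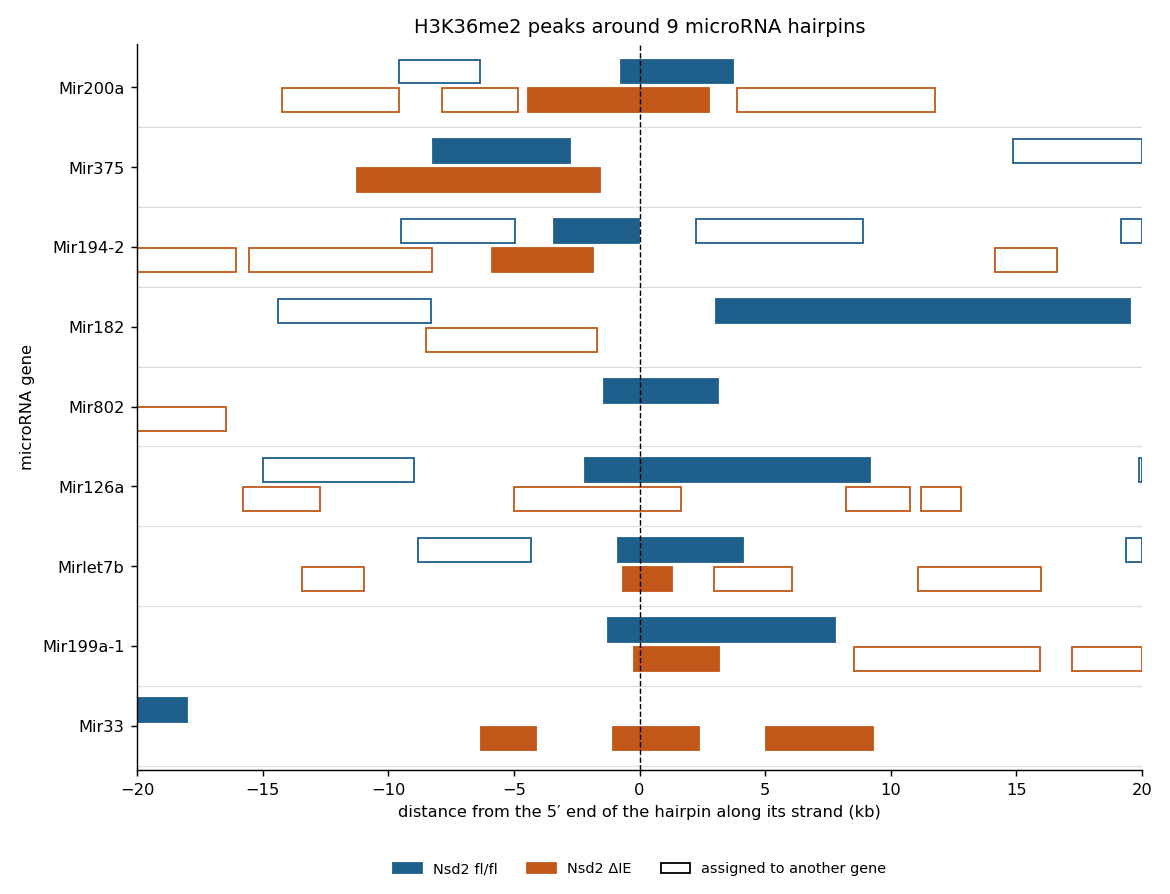
H3K36me2 peaks within 20 kb of 9 microRNA hairpins, drawn as bars along the distance in kb from the hairpin's 5′ end in its own direction, with Nsd2 fl/fl (blue) above Nsd2 ΔIE (orange) in each row and open bars for peaks assigned to other genes. The peaks of Mir200a, Mirlet7b and Mir199a-1 cover the dashed line in both libraries, those of Mir802 and Mir126a in Nsd2 fl/fl only by their own name, and the open Nsd2 ΔIE bar over Mir126a is the Egfl7 peak.

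Members that share a seed were seen together in 1 library in some cases, which were chosen after their values were seen. Mir148a, Mir148b and Mir152 share the seed CAGUGCA and lie on 3 chromosomes. Each had a promoter-labelled peak in Nsd2 fl/fl, of 4484, 6081 and 6069 bp, and none in Nsd2 ΔIE, and no Nsd2 ΔIE peak overlapped them. Mir26a-1, Mir26a-2 and Mir26b share UCAAGUA and lie in Ctdspl, Ctdsp2 and Ctdsp1, which code for related phosphatases. All 3 had a peak in Nsd2 ΔIE, with sums of 5791, 5928 and 2850 bp, and in Nsd2 fl/fl Mir26a-1 alone had a peak, of 5332 bp. A peak of Mir26a-2 was overlapped by a Nsd2 fl/fl peak assigned to Ctdsp2. Among the members, the seed GAGGUAG of let-7 was also carried by Mir7k, whose mature strand is named let-7k, and by Mir1961. The 4 members with this seed had peaks in 1 case in Nsd2 fl/fl and in 4 cases in Nsd2 ΔIE. Seed groups hold only genes with a peak in at least 1 library, so let-7 genes with no peak are left out. Apart from Mirlet7b, the members of this group entered it only by their Nsd2 ΔIE peaks. Likewise, Mir148a, Mir148b and Mir152 were members only by their Nsd2 fl/fl peaks, and Mir26a-2 and Mir26b only by their Nsd2 ΔIE peaks. The lean of such groups to 1 library follows from how they were chosen and is no result. Over all 42 shared seeds, 12 had more genes with a peak in Nsd2 fl/fl, 12 had more in Nsd2 ΔIE and 18 had as many in each, and 4 had peaks in Nsd2 fl/fl only and 4 in Nsd2 ΔIE only. Seeds of both arms of a gene were counted, so the seeds are not independent. Among the single-library seeds, Mir148a, Mir148b, Mir30c-1, Mir128-1 and Mir128-2 each stand under more than 1 seed. The tally is thus even by seed and not by separate genes, and the named groups are examples from both of its sides.

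The widest microRNA peaks were bodies of protein-coding hosts. In Nsd2 fl/fl the 5 widest were assigned to Mir7032 in Hip1r with 25646 bp, Mir7118 in the plexin gene Plxnb2 with 24624 bp, Mir6921 in Srebf1 with 23347 bp, Mir3104 in the kinase gene Brsk2 with 23338 bp and Mir8107 in Nbeal2 with 22865 bp. All 5 covered their hairpins, and the Mir7032 peak ranked 16 by signal among the 19976 peaks of the list. In Nsd2 ΔIE the 5 widest were those of Mir3087 in the lipid transporter gene Abca2 with 13074 bp, Mir6996 in Notch1 with 12625 bp, Mir7088 in Mst1 with 12457 bp, Mir343 in Ercc2 with 12092 bp and Mir709 in Rfx1 with 10901 bp. All 5 genes of the second set also had an overlapping peak of their own in Nsd2 fl/fl. Of the first set, Mir8107 had no peak in Nsd2 ΔIE.

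By signal per bp, the highest microRNA peaks were narrower than the median microRNA peak of their list. In Nsd2 fl/fl they were those of Mir6952 in the polarity gene Scrib (12.4), Mir499 in the myosin gene Myh7b (10.3), Mir6918 (10.2), Mir28b (10.1) and Mir6906 (a signal of 40518 over 4040 bp), and in Nsd2 ΔIE those of Mir693 (11.6), Mir147 (10.9), Mir26a-1 (10.9), Mir6913 (10.4) and Mir339 (10.2). The Mir6952 peak was 1997 bp wide and the Mir693 peak 1681 bp, the narrowest microRNA peak of each list. Of all peaks, 30 in the Nsd2 fl/fl list and 85 in the Nsd2 ΔIE list had a higher signal per bp than the highest microRNA peak.

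The largest falls in summed length were at Mir7032, from 28186 to 3527 bp (log2 ratio -3.0), Mir693, from 10700 to 1681 bp (-2.67), Mir7662 in Tspan15, from 13649 to 2294 bp (-2.57), Mir6403 in Man1c1, from 16742 to 3202 bp (-2.39), and Mir705 in Rab11fip5, from 17041 to 3387 bp (-2.33). In 4 of these the Nsd2 ΔIE peak lay inside a Nsd2 fl/fl peak of the same gene, and at Mir705 it lay outside. Under the host's own name, Man1c1 went from 21834 to 12726 bp, Rab11fip5 from 4353 to 10823 bp and Tspan15 from 0 to 7177 bp. The largest gains were at Mir3092 in Fndc3b, from 3364 to 13675 bp (2.02), Mir6941 (1.83), Mir3075 in Zmiz1, from 8280 to 24868 bp (1.59), Mir695 in Pigu, from 3130 to 9270 bp (1.57), and Mir7044 in Rasgef1a, from 2753 to 7355 bp (1.42). None of the Nsd2 fl/fl peaks of Mir3092 and Mir7044 was met in Nsd2 ΔIE. At Mir3075 there were 6 peaks in Nsd2 ΔIE against 2 in Nsd2 fl/fl. Under the hosts' own names, Fndc3b went from 3902 to 7375 bp, Zmiz1 from 38132 to 27884 bp and Rasgef1a from 20805 to 12946 bp. Jag2 went from 25802 to 6915 bp, and Pigu had no peak of its own. A 5545 bp Nsd2 ΔIE peak assigned to Mir3075 overlapped a 5509 bp Nsd2 fl/fl peak assigned to Zmiz1. Part of that gain is thus a matter of the name given to the peak.

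Several members collected many peaks across a long host. There were 3 or more peaks at 34 members in Nsd2 fl/fl and at 39 in Nsd2 ΔIE. Mir6406 lies in Ntn1, the gene of an axon guidance cue, and had 8 peaks of 42978 bp in Nsd2 fl/fl and 12 of 44697 bp in Nsd2 ΔIE, spread over Ntn1 and the neighbouring gene Stx8. Mir7689 in Sorcs2 had 3 peaks of 32507 bp in Nsd2 fl/fl and 7 of 30651 bp in Nsd2 ΔIE. Mir5120 in Pax5 had 4 and 8 peaks, with 18876 and 28265 bp. More and narrower peaks over a similar length was thus the pattern at Mir6406 and Mir7689, while the summed length of Mir5120 was longer (log2 ratio 0.58). Mir6346 in the Hedgehog factor gene Gli2 had 5 and 7 peaks with 31196 and 26532 bp, and Mir3108 in Zfhx3 had 3 and 7 with 20591 and 22391 bp. Mir218-2, which is made from Slit3, had 5 peaks with 24668 bp in Nsd2 fl/fl and 4 with 13484 bp in Nsd2 ΔIE (log2 ratio -0.87), and only a Nsd2 ΔIE peak covered its hairpin. Mir6393, whose hairpin lies in no other gene of GRCm38.p6, had 7 and 4 peaks, with 28429 and 15382 bp, of which the farthest in Nsd2 fl/fl lay 77397 bp from the hairpin inside Tafa5. Peaks more than 25 kb from the hairpin made up 52 of the 472 microRNA peaks in Nsd2 fl/fl, or 11.0% (8.50 to 14.2), and 101 of the 531 in Nsd2 ΔIE, or 19.0% (15.9 to 22.6). Among the other peaks the shares were 24.8% and 26.9%, so microRNA peaks were less often this far from their gene in both lists. The farthest microRNA peaks lay 185972 and 290835 bp away.

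**Figure D4:**
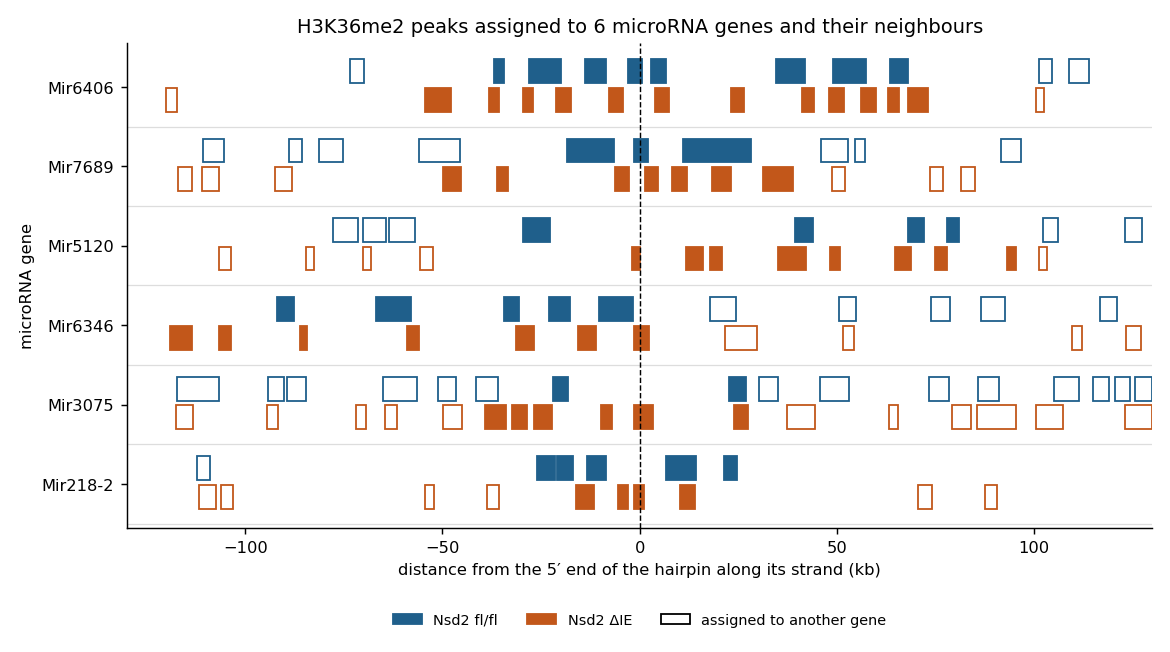
H3K36me2 peaks within 130 kb of 6 microRNA genes that collected many peaks, drawn as bars along the distance in kb from the hairpin's 5′ end in its own direction, with Nsd2 fl/fl (blue) above Nsd2 ΔIE (orange) and open bars for peaks assigned to other genes. The filled bars are fewer and wider in Nsd2 fl/fl at Mir6406 (8 against 12) and Mir7689 (3 against 7), and at Mir218-2 there are 5 against 4.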

How the data were processed

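The authors made a peak list for each H3K36me2 CUT&Tag library separately. The submitters' notes name Bowtie2, SEACR, ChIPseeker and deepTools without versions. They list hg38, a human build, while of 389 hairpins found in GRCm38.p6 all 389 had the same length in the lists and 3 the same start, so the lists' build is not given in the sources used here. The deposited signal of a peak is a whole number, read as coverage summed over the peak, with no stated scaling to depth. Depth is unknown, so it gives no error for a peak. The other deposited columns (width, distance, nearest gene, feature) are the authors' annotation.

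From these, overlaps (bedtools 2.31.1, at least 1 bp), summed widths per gene, log2 ratios with a limit of 0.5 and 95% Wilson intervals (scipy 1.17.1) were obtained in Python 3.11.15 (pandas 2.3.3, numpy 2.4.6). Host spans came from RefSeq GRCm38.p6, matched by symbol. On simulated lists of 5000 peaks, 2000 of 2000 shared peaks and 500 of 500 microRNA peaks were recovered. No test was made, for want of replicate libraries.

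Named genes were those whose peaks overlap between libraries, the members of the fixed microRNA lists, the 5 widest peaks and the 5 highest per bp, the 5 lowest and 5 highest log2 ratios, and genes with 3 or more peaks, a selection of which is given with values. Seed groups, host genes and the lists of microRNA processing genes and host transcripts were chosen after values were seen. The members and lists were chosen with earlier results of these data known. Alternatives were other list cuts, overlap rules, promoter distances, log2 limits and counts of peaks. RNA-seq of the study was not used here.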

Additional observations from a re-analysis of the deposited data

How the results depend on the processing

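Of 59 values under other settings, 46 stayed within 1.5 times the count or within the interval of the share, and 13 moved. Several of the 46 could not have moved, so the tally overstates how stable the values are. All microRNA peaks were autosomal, a stricter symbol rule chose the same peaks, and equal list sizes left the shorter Nsd2 fl/fl list whole. The counts of genes in a single library do not depend on the log2 limit, on centring or on counting peaks. With the strongest 50% of each list by signal, 272 and 311 microRNA peaks (Nsd2 fl/fl and Nsd2 ΔIE) of 207 and 225 genes were left. With a reciprocal overlap of 50%, 19.5% and 17.5% of microRNA peaks were shared, and with a promoter of 1 kb, 37.1% and 31.5% had the label. Hairpins with a peak within 3 kb were 238 and 234, against 163 and 134 under a peak. A log2 limit of 1 left 51 genes lower, 16 higher and 144 between. By number of peaks 39 genes were lower and 48 higher, and after centring 64 and 63, so that the excess of lower genes was nearly gone after centring and turned by number of peaks. The causes of these moves were not tested, apart from the fewer peaks or stricter limits that the settings impose. The settings of 1 peak per gene for the overlap and of any overlapping peak for the lengths were chosen after seeing the data, and no value moved under them. No paired analysis was possible because there was 1 library in each group, which also leaves no replicate to omit. Depth is unknown, so a peak missing from a list may lie just under its signal limit. Within 10% of that limit lay 18.2% and 20.2% of the microRNA peaks, against 25.4% and 26.0% of all peaks (Nsd2 fl/fl and Nsd2 ΔIE).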

Other observations

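Of 16 genes of microRNA processing and silencing, chosen after the data were seen, 8 had an H3K36me2 peak in each library and 4 in both. The share of all protein-coding genes with a peak was not computed, so these counts stand without a background share. Dicer1, whose enzyme cuts hairpins to mature microRNAs, had 4 peaks of 18421 bp in Nsd2 fl/fl and 1 of 3010 bp in Nsd2 ΔIE (log2 ratio -2.61). Ago2, the slicing Argonaute, had 22875 and 14823 bp (-0.63), Tnrc6b, a partner of Argonaute in silencing, 6001 and 2710 bp (-1.15), and Lin28a, which blocks let-7 processing, 5525 and 4717 bp (-0.23). Among all 7870 genes with peaks in both libraries, 41.8% had a log2 ratio below -0.5. Drosha, which cuts primary transcripts, and its partner Dgcr8 had 9721 and 3025 bp in Nsd2 ΔIE and no peak in Nsd2 fl/fl, as did Tarbp2 with 4373 bp and Prkra with 9234 bp. Ran, Ago1, Ago3 and Tnrc6a had 4455, 3373, 4236 and 5317 bp in Nsd2 fl/fl only. Xpo5, Ago4, Tnrc6c and Lin28b had no peak under their own names, although Xpo5 holds the peaks of Mir693.

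Host transcripts of microRNAs that have no protein product were assigned peaks at 7 symbols. Each of the 7 had a peak in at least 1 library, so the counts give no coverage rate for such transcripts. In Nsd2 fl/fl 5 of them had a peak, in Nsd2 ΔIE 5, and in both 3. Mir205hg went from 9454 to 3225 bp (log2 ratio -1.55), Mir670hg from 12736 to 9049 bp (-0.49) and Mir124a-1hg from 5067 to 5633 bp (0.15). Mir9-3hg had 11480 bp and Mir100hg 4668 bp in Nsd2 fl/fl only, and Mir155hg 4133 bp and Mir1a-1hg 3698 bp in Nsd2 ΔIE only. All of these differences rest on 1 library per genotype.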
